A study of Mus musculus with 9 samples.

Results

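The single Smc1 HiChIP library of (NOD/ShiLtJ X C57BL/6) F1 mice was deposited in 2 tables, one made on the C57BL/6J (BL6) reference genome (below, the BL6 table) and the other on the NOD/ShiLtJ (NOD) genome (the NOD table). The members described here are those 2 tables out of 10, from 1 sample out of 9, taken by sample label and by the mark in the table's name that its coordinates were shifted from the NOD genome to the reference. Since the reads are the same, the comparison asks which loci are listed on one genome only. All cells were sorted CD4+ CD8+ (double-positive) thymocytes. The other 4 groups were 2 Smc1 libraries each of C57BL/6J and NOD/ShiLtJ mice, labelled as technical repeats of 1 biological sample, and 2 H3K27ac libraries per strain, labelled as biological replicates. Smc1 also stands in the titles of the 4 H3K27ac samples, whose antibody field was followed. The 4 BL6 libraries were listed on the BL6 genome and the 4 NOD libraries on the NOD genome, so in them strain and mapping genome cannot be told apart. Ages and sexes of the mice are not given in the sources used here.

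Smc1 is a subunit of cohesin, the ring complex that extrudes chromatin loops and halts at convergent CTCF sites. HiChIP cuts crosslinked chromatin, here with MboI, ligates ends that lie close together, precipitates them with an antibody and sequences both ends as a read pair. A read is placed only where its sequence can be found, so the placing of reads from near-identical gene copies can depend on the copies in the assembly. The Sp100 and Sp140 family, nuclear body proteins with chromatin-reading domains that respond to interferon, lies in such a repeated stretch of mouse chromosome 1.

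The promoters of that stretch are shown because the largest set of separate loci listed on one genome only fell there. Each runs from 250 bases before to 50 after the transcription start (RefSeq, GRCm38.p6, 5′ to 3′ along the gene). Capitals mark bases that lie in no 38-base window shared with another gene's promoter, 38 bases being the read length, and lower case marks the rest. The A530032D15Rik promoter (chr1:85109804-85110103, minus strand), that of C130026I21Rik (chr1:85270517-85270816, minus strand) and that of Sp140 (chr1:85600453-85600752, plus strand) shared 89.0%, 82.9% and 74.5% of their 263 windows, in each case only with the other 2:
A530032D15Rik: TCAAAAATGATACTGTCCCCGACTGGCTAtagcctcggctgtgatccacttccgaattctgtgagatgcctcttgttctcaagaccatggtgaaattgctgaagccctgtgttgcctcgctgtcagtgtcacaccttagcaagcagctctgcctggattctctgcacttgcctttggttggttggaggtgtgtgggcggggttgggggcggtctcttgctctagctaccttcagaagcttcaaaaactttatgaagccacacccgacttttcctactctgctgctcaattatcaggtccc
C130026I21Rik: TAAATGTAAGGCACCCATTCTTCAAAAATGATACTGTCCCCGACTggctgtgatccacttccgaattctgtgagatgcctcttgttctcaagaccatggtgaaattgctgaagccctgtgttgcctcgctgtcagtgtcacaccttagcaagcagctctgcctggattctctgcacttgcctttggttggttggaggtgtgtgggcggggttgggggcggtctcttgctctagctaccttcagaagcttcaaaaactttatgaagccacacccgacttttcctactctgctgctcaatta
Sp140: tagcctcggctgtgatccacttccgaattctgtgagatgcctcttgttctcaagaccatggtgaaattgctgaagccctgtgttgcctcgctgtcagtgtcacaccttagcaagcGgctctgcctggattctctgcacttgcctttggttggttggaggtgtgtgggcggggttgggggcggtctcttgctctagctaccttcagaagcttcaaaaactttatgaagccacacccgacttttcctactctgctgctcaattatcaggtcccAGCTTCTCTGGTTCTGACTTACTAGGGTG
In the Sp140 promoter a single capital stands inside the run of shared sequence. A second pair was Gm7609 (chr1:85199361-85199660, plus strand) and Sp100 (chr1:85649738-85650037, plus strand), which shared 66.5% of their windows with each other:
Gm7609: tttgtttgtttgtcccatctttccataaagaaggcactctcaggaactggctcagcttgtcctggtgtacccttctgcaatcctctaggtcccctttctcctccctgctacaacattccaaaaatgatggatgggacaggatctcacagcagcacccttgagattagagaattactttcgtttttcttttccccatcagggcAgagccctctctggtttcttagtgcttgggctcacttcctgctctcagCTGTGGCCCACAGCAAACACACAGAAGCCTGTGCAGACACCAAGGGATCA
Sp100: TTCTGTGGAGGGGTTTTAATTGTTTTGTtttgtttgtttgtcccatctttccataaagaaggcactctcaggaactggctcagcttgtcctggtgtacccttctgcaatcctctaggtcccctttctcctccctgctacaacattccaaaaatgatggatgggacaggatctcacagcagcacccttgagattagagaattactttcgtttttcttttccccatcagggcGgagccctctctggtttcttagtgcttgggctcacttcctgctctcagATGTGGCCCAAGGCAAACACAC
Of the Sp110 promoters, that at chr1:85603842-85604141 (minus strand, not printed) shared 46.4% of its windows with promoters of 23 other genes. The Sp110 promoter at chr1:85598761-85599060 (minus strand) and that of Mroh2a (chr1:88226770-88227069, plus strand) had no window in common with another gene's promoter, and all their bases stand in capitals:
Sp110: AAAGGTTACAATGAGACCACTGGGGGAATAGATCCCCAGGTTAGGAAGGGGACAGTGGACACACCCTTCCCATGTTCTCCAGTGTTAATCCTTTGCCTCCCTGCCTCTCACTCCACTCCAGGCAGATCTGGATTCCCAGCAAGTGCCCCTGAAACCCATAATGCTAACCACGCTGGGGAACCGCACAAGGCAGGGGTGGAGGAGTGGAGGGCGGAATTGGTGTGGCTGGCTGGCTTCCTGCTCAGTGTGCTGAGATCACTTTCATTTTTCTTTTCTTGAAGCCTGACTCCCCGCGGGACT
Mroh2a: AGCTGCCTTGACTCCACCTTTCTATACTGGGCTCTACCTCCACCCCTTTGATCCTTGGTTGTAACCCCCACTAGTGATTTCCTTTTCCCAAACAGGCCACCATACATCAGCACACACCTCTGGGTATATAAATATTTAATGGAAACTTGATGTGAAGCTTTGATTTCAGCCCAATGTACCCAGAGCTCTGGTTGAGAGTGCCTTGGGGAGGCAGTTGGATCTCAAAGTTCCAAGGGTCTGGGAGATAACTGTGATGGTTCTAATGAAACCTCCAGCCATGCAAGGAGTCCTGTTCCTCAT
Over all 32851 promoters in the RefSeq table, 19.9% had any shared window and 10.7% shared over 131 of their 263 windows. Of the 20 promoters (14 genes) that fell inside loci listed on the NOD genome only, 11 (55%) did so. Promoters that overlap on the genome were not set apart in any of these counts. The 11 include 2 overlapping promoters of Sp100 (chr1:85649738-85650037 and chr1:85649764-85650063). They also include 1 of Tmem267 that overlaps the gene 3110070M22Rik, with whose promoter its windows were shared. The NOD genome sequence was not used here, so the number of copies in it was not counted. Whether copies bear on which loci are listed was not tested. A promoter was found for 34 of the 42 genes looked up, and Sfi1 is named only.

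On chromosomes 1 to 19 the library had 310370 interactions with 837020 read pairs in the BL6 table and 315986 with 879103 in the NOD table, an excess of 42083 read pairs. An interaction is a pair of anchors (short segments called by the authors) with the number of read pairs that join them, and the tables hold only interactions of at least 2 read pairs, a q-value up to 0.05 and a distance under 2 Mb. A locus with nothing listed can therefore hold read pairs below those limits, and no fold is given against it. Distances were spread alike, with 59.86% (95% exact binomial interval 59.69 to 60.03) of interactions at 100 kb to 1 Mb in the BL6 table and 59.72% (59.55 to 59.90) in the NOD table. Interactions of 2 read pairs made up 66.88% and 66.68%. There is 1 library and no replicate, so nothing here was tested, and intervals cover counting error only, as read pairs without molecular identifiers are not independent molecules. The other libraries held 404335 to 2971209 read pairs.

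Most contacts were listed identically. By overlapping anchors, 89.65% of the interactions of the BL6 table were also in the NOD table, and 88.03% the other way round. Of the shared ones, 98.84% had the same number of read pairs and 99.74% came within 1. Anchors behaved alike: 94.45% of 272350 BL6 anchors overlapped a NOD anchor, and the NOD to BL6 ratio of reads per overlapping anchor had a median of 1 and 5th and 95th percentiles of 0.970 and 1.04. The midpoints of overlapping anchors lay within 100 bases of each other in 95.59%, so the shift of coordinates moved few anchors across a bin edge (0.0750%).

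The remaining 32113 interactions of the BL6 table (10.35%) and 37813 of the NOD table (11.97%) had no counterpart. An anchor was missing from the other table in 62.21% and 64.94% of them. Where both anchors were present, 59.46% and 58.41% of the unmatched interactions had 2 read pairs, and their median q-value was 0.0283 and 0.0288, against 0.0186 for matched interactions of either table. The shares parted among strong interactions. Among interactions of 2 read pairs 10.20% (BL6) and 11.58% (NOD) were unmatched, and among those of 20 to 49 read pairs 13.76% (interval 11.03 to 16.87) and 31.30% (27.90 to 34.87). At 50 read pairs and over the NOD table had 148 interactions, of which 141 (95.27%, 90.50 to 98.08) were absent from the BL6 table, while the BL6 table had 7 and all 7 were matched. Of the 141, 129 lay at Sfi1, 6 at other bins listed on the NOD genome only, and 6 elsewhere, 2 of these on chromosome 2 and 2 on chromosome 1.

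**Figure D1:**
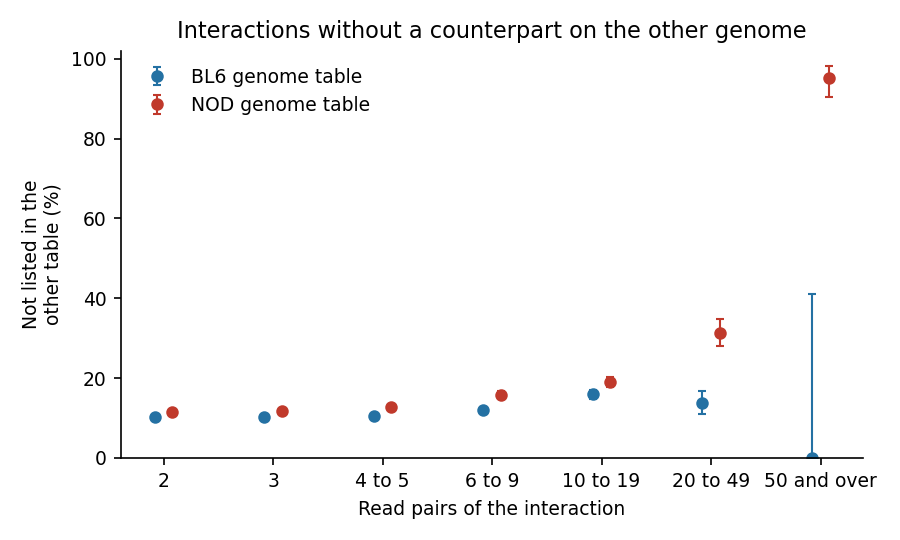
Share of interactions with no counterpart in the other table (y axis, %) by the number of read pairs of the interaction (x axis), for the F1 tables on the BL6 genome (blue) and the NOD genome (red); bars are 95% exact binomial intervals. The shares lie close together up to 19 read pairs and part above it, to 0 of 7 on the BL6 genome and 141 of 148 on the NOD genome at 50 and over.

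Reads per anchor, a separate column of the tables, differed likewise among strong anchors. Of 75 NOD anchors with at least 2000 reads, 46 overlapped no BL6 anchor, and 35 of the 46 lay in bins listed on the NOD genome only. None of the 26 BL6 anchors of that size lacked a NOD counterpart. The strongest anchors without counterpart had 1598 reads in the BL6 table and 28514 in the NOD table, although the medians were 282 and 284.

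Read pairs were then summed over aligned 25 kb bins, each interaction counting in the bin of either anchor. Of 84279 bins with an interaction on either genome, 81398 were listed on both, 1338 in the BL6 table only and 1543 in the NOD table only. Most one-genome bins were weak, with a median of 2 read pairs on either genome, but the highest held 23 read pairs in the BL6 table and 11937 in the NOD table. Among the 34331 bins that held at least 20 read pairs in either table, 39 (0.114%) were listed on the NOD genome only and 4 (0.0117%) were BL6-only. At 50 read pairs these were 18 and 0. Just under the limit, 16 bins of 15 to 19 read pairs were NOD-only and 12 BL6-only.

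**Figure D2:**
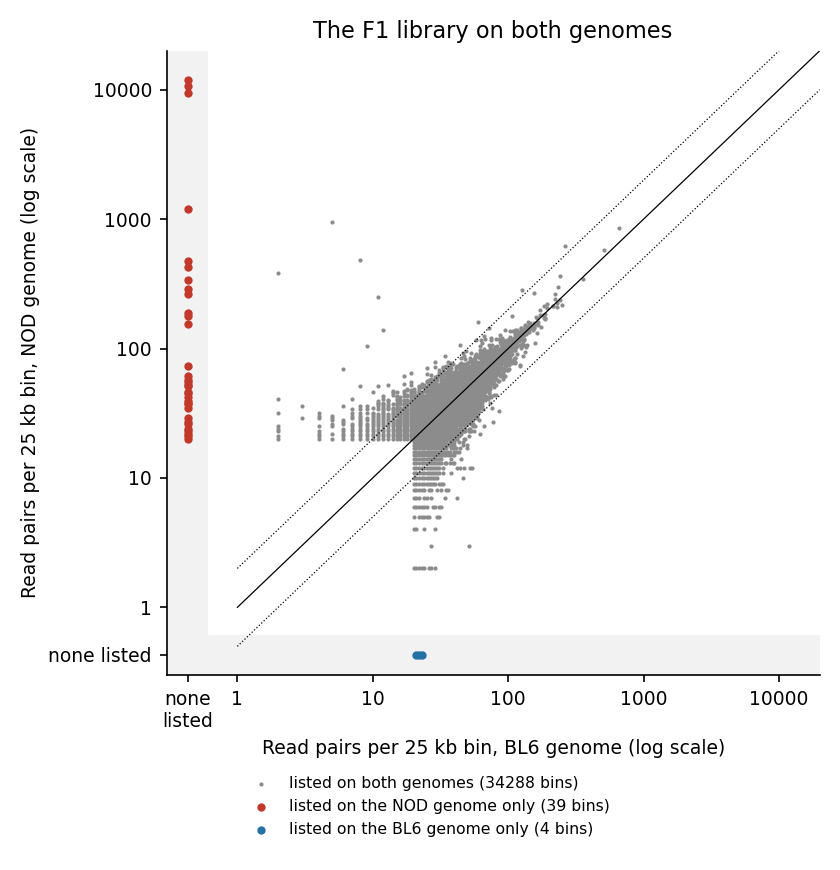
Read pairs per 25 kb bin of the F1 library in the BL6 table (x axis) and the NOD table (y axis), both log scales, for the 34331 bins with at least 20 in either; the solid line marks equality, dotted lines a 2-fold ratio, and the grey strips bins with nothing listed on that genome. The 39 bins in the left strip reach 11937 read pairs, and the 4 in the lower strip reach 23.

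Touching bins of the same direction were joined into loci, 28 NOD-only and 4 BL6-only. The NOD loci held 25092 read pairs in 598 interactions, which was 2.854% of the NOD table and equal in size to 59.63% of its net excess over the BL6 table. Interactions without counterpart held more on either side, 132048 read pairs in the NOD table and 89926 in the BL6 table. The 4 BL6 loci held 88 read pairs. Of the NOD loci, 20 touched a protein-coding gene and 21 were a single bin.

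Sfi1, whose product binds centrin at centrosomes, held 85.8% of the read pairs of the NOD loci. At chr11:3125001-3200000 the NOD table listed 21529 read pairs in 265 interactions among 26 anchors of 1408 to 14152 reads, and the BL6 table listed none. Of these, 99.93% joined anchors inside the locus, and 10128 spanned under 10 kb. The locus had 12414 and 18490 read pairs in the Smc1 NOD libraries and 4962 and 5188 in the H3K27ac NOD libraries, and nothing was listed in either Smc1 BL6 library or either H3K27ac BL6 library. Every NOD table thus carried this locus and no BL6 table did. A transcribed pseudogene, Pisd-ps1, overlaps its left edge (chr11:3124002-3131945). Over the whole gene body, which reaches 1 bin further, the F1 library had 11 read pairs in the BL6 table and 21542 in the NOD table. Chromosome 11 was accordingly the chromosome with the highest NOD to BL6 ratio of read pairs, 1.395, where the other 18 had 1.009 to 1.057.

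The second locus, chr17:39825001-39850000, consisted of 1 interaction of 1201 read pairs, the strongest of the whole table. It joined anchors at chr17:39842535-39845277 and chr17:39845385-39849269 with 7388 and 13918 reads. No protein-coding gene lies within 100 kb. The annotation places Rn18s-rs5, an 18S ribosomal RNA related pseudogene, at chr17:39846354-39848202, inside the second anchor, a gene looked up after the value was seen. Scaled to its total of listed read pairs (CPM, the usual scaling to library size), the F1 table had 1366, the Smc1 NOD libraries 1.112 and 566.4, and the H3K27ac NOD libraries 1078 and 899.2, so the 2 technical repeats of Smc1 NOD differed widely here. Nothing was listed in the BL6 libraries.

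The Sp100 and Sp140 block on chromosome 1 held 7 of the 28 loci within 27 bins (chr1:84975001-85650000). Over the block the F1 library had 3 read pairs in 1 interaction in the BL6 table and 1153 in 171 interactions in the NOD table, 984 of them (85.34%) with both ends inside the block. There were 145 and 213 read pairs in the Smc1 NOD libraries, the H3K27ac NOD libraries 99 and 59, and the 4 BL6 libraries none. In CPM the F1 library had 1312 in its NOD table and the Smc1 NOD libraries 80.62 and 129.0.

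The contacts of the block ran between its loci. At chr1:85575001-85650000, which covers Sp140 and most of Sp110 and touches the start of Sp100, 807 read pairs in 90 interactions were listed, of which 85.38% led to other loci listed on the NOD genome only. The strongest bin pair joined the C130026I21Rik and Gm38510 bin chr1:85275001-85300000 to the Sp110 and Sp140 bin chr1:85575001-85600000 with 220 read pairs in 11 interactions. The next in the block joined A530032D15Rik (chr1:85075001-85100000) to Sp140 and Sp110 (chr1:85600001-85625000) with 130 read pairs in 9 interactions. The C130026I21Rik and Gm38510 locus (chr1:85225001-85300000) held 579 read pairs, 82.56% of them to other such loci, and that of A530032D15Rik (chr1:85050001-85125000) 344, of which 88.37% did so.

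**Figure D3:**
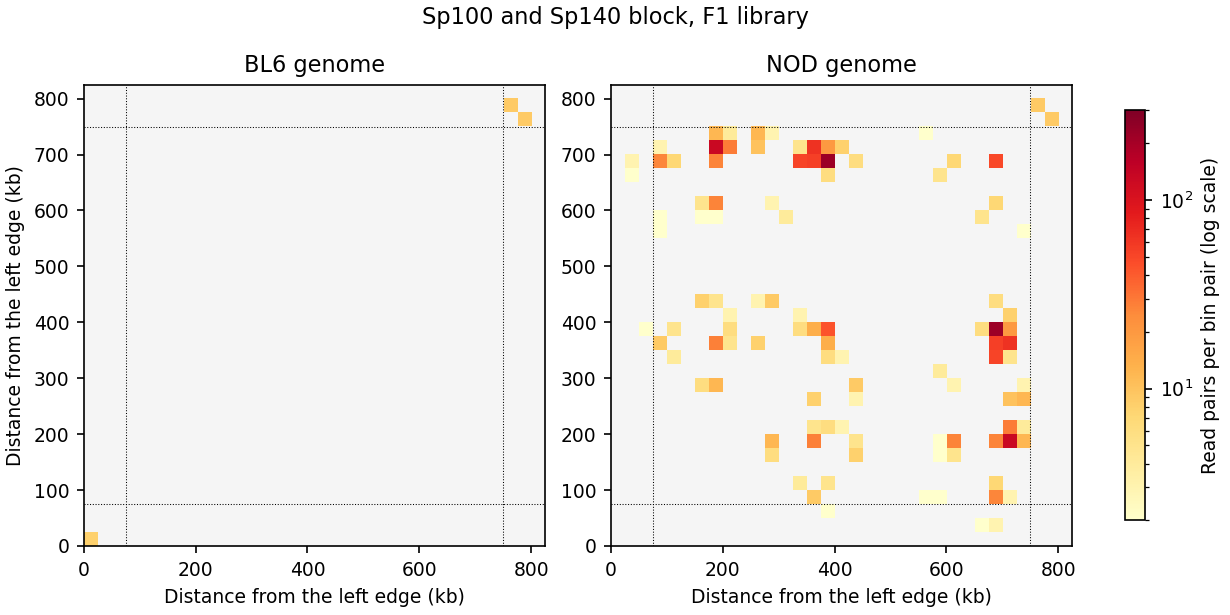
Read pairs of the F1 library per pair of 25 kb bins (colour, log scale; grey where nothing is listed) over the Sp100 and Sp140 block and 75 kb on either side, on the BL6 genome (left) and the NOD genome (right); axes give the distance from the left edge of the window in kb and dotted lines bound the block. On the BL6 genome no contact lies inside the dotted lines, while on the NOD genome separate spots link the loci, the strongest with 220 read pairs.

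The smaller loci of the block had 70 read pairs at chr1:84975001-85025000 (nearest gene Slc16a14, a transporter family member), 70 at chr1:85150001-85200000 (Gm38510, Gm7609), 52 at chr1:85500001-85525000 (Gm7592, Gm2427) and 39 at chr1:85325001-85350000 (Gm7592). Between 77.14% and 94.29% of their read pairs led to other NOD-only loci. The last was listed in no parental library at all. Sp110 and Sp140 had 3 and 0 read pairs over their gene bodies in the BL6 table and 778 and 807 in the NOD table. Sp100 differed, with 50 and 92, since its 4 bins are listed on both genomes beyond its first. In the parental Smc1 libraries Sp100 had 83 and 138 (BL6) and 79 and 127 (NOD), ranges that overlap. The Sp110 promoter printed above lay under an anchor of 3165 reads on the NOD genome, and the Sp110 promoter not printed under 1 of 2036. The C130026I21Rik promoter lay under an anchor of 511 reads and the Sp140 promoter under anchors of at most 305. The promoters of A530032D15Rik, Gm7609 and Sp100 lay under none. On the BL6 genome no anchor overlapped any of them.

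Mroh2a, a maestro heat-like repeat gene, and its neighbours formed the other group on chromosome 1. The bin chr1:88225001-88250000 had 429 read pairs in 26 interactions in the NOD table and none in the BL6 table. Its right neighbour, with Hjurp, the chaperone that loads the centromeric histone CENP-A, had 381 and 2, a raw ratio of 190.5. Its left neighbour, with Ugt1a10, Ugt1a5 and Ugt1a6a of the bilirubin and drug conjugating UDP glucuronosyltransferases, had 251 and 11, and the next bin to the right, also Hjurp, 139 and 12. Across these 4 bins (chr1:88200001-88300000) the F1 library had 25 read pairs in the BL6 table and 861 in the NOD table, 86.88% of the latter inside. The Smc1 BL6 libraries had 35 and 103 and the Smc1 NOD libraries 293 and 435. Here the BL6 libraries were not empty. Both Smc1 NOD libraries stood above both Smc1 BL6 libraries, an order that 17.0% of the 34331 bins of at least 20 read pairs had in CPM. Unlike the Sp140 trio, the promoters of Mroh2a, Hjurp and these Ugt1a genes had no shared window. That of Mroh2a lay under a NOD anchor of 1750 reads and that of Hjurp under 1 of 1273, and under none on the BL6 genome.

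Tmem267, a transmembrane protein gene, had 178 read pairs in 7 interactions at chr13:119475001-119500000 in the NOD table. Of these, 152 in 6 interactions led to the bin chr13:119600001-119625000, with the other end of Tmem267 and with Ccl28, a mucosal chemokine. The Smc1 BL6 libraries had 0 and 11 read pairs at the locus and the Smc1 NOD libraries 204 and 240. Over its whole body Tmem267 was listed on both genomes, with 660 F1 read pairs in the BL6 table and 882 in the NOD table. An anchor of 2050 reads covered 1 of its 2 listed promoters (chr13:119488223-119488522), which had 57.4% of its windows in common with the promoter of the long noncoding 3110070M22Rik. The body of that gene (chr13:119487257-119488384) overlaps this Tmem267 promoter. Windows in common there can therefore be the same bases of the genome, not a second copy. At 1600014C10Rik (chr7:38175001-38200000) the NOD table had 156 read pairs and an anchor of 2814 reads over both listed promoters. In CPM, the F1 value of 177.5 was under those of the Smc1 NOD libraries (177.9 and 368.9) and of the H3K27ac NOD libraries (1034 and 477.5). On chromosome 7 this locus was linked to those nearest Gm21115 (42 read pairs), at Gm5591 (26) and nearest Pop4, an RNase P subunit gene (21), with 14.10% to 57.14% of the read pairs of each of the 4 leading to another of them. At chr6:47625001-47675000 (Gm40365, Gm40369, Gm40367) the NOD table had 72 read pairs, 36 of them in 1 interaction under 10 kb. Its 2 anchors, chr6:47646203-47648668 and chr6:47649169-47651440, overlap the long noncoding Gm40371 (chr6:47644607-47651320) and reach none of the genes just named. The annotation also has the 4.5S RNA gene Rn4.5s at chr6:47654921-47655094 in this locus, outside both anchors. These features too were looked up afterwards. The Smc1 BL6 libraries had 39 and 48 read pairs at the locus and the Smc1 NOD libraries 192 and 159. The locus nearest Dclre1a, a DNA cross-link repair nuclease, had 55 read pairs in 20 interactions (chr19:56500001-56525000). In all, 13 loci held at least 50 read pairs.

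Of the 39 bins listed on the NOD genome only, 15 (38.5%) touched an annotated pseudogene, against 8.77% of the 34331 bins, 12.3% of the 57 bins listed in both tables and over 2-fold higher in the NOD table, and 0 of the 4 BL6 bins. This was counted after the loci had been seen.

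The 28 loci split by their record in the libraries the rule did not use. At 16, neither Smc1 BL6 library listed an interaction, and at the same 16 neither H3K27ac BL6 library did. These 16 included 10 of the 13 loci of at least 50 read pairs and 6 of the 15 smaller ones. At 10 loci both Smc1 BL6 libraries did, and the same number, 10, was listed in all 4 parental Smc1 libraries. The highest anchor of a locus had a median of 1094 reads in the 16 and of 350 in the other 12. Both Smc1 NOD libraries listed 23 of the 28, 1 of them listed 4, and neither listed 1. In CPM, Sfi1 had 24490 in F1, whose own values chose the loci, and 6902 and 11200 in the Smc1 NOD libraries.

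Among the loci near the limit, that at Ets1 (chr9:32725001-32750000), a transcription factor of T cell development, had 24 read pairs in the NOD table and none listed in the BL6 table. In CPM it had 27.30 in F1, 19.62 and 2.019 in Smc1 BL6 and 46.15 and 38.16 in Smc1 NOD. Over its whole body Ets1 had 149 F1 read pairs in the BL6 table and 153 in the NOD table. At Eif4e, the cap-binding translation factor, 20 read pairs in the NOD table corresponded to 22.75 CPM, between the 13.80 and 29.19 of the Smc1 BL6 libraries. The loci nearest Egln3 and at Zdhhc18 and Sfn, and at Zfp493, were likewise listed in both BL6 Smc1 libraries. In CPM the Smc1 BL6 and Smc1 NOD libraries had 17.23 and 9.76 against 18.35 and 17.57 nearest Egln3. At Zdhhc18 and Sfn they had 48.33 and 10.1 against 36.14 and 19.38. At Zfp493 both BL6 libraries were higher, with 25.36 and 7.068 against 1.112 and 3.635. There, 19 of the 22 F1 read pairs came from 1 interaction over 1115 bases. By contrast Zfp600, a KRAB zinc finger gene whose first listed promoter shared 94.3% of its windows with those of 6 other genes, had 37 read pairs at its locus in F1 and none in either BL6 Smc1 library, and 1.112 CPM in 1 NOD library.

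**Figure D4:**
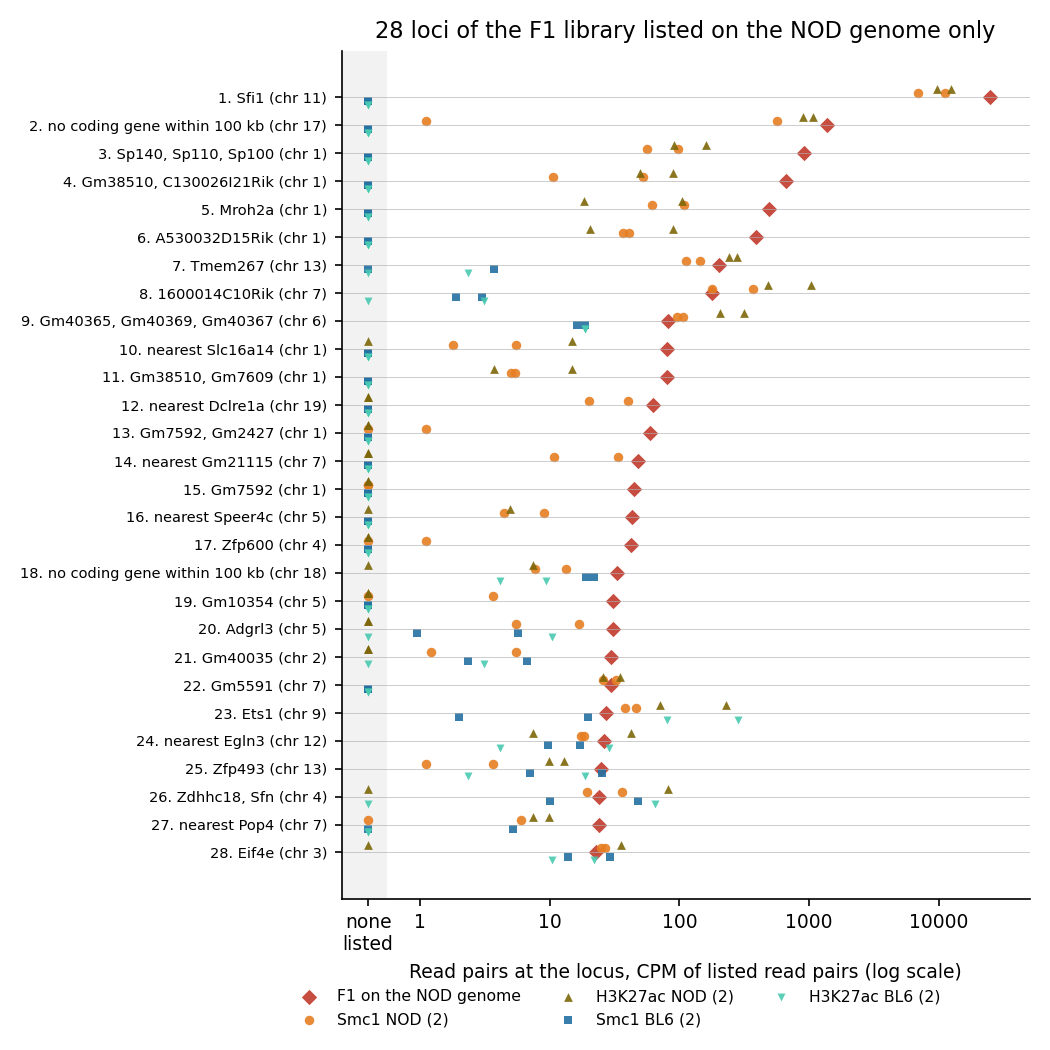
Read pairs in CPM (x axis, log scale) at the 28 loci of the F1 library listed on the NOD genome only (y axis, ordered by F1 read pairs, named by touching or nearest coding genes), for F1 on the NOD genome and the 2 libraries of each parental group; the grey strip marks libraries with nothing listed. All 4 BL6 libraries lie in the strip at 16 loci.

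The 4 BL6-only loci were at Snap25, a synaptic vesicle fusion protein gene (23 read pairs, chr2:136775001-136800000), Slc28a2, a nucleoside transporter gene (22, chr2:122425001-122450000), on chromosome 19 with no coding gene within 100 kb (22, chr19:59750001-59775000), and on chromosome 18 nearest Ftmt, mitochondrial ferritin (21, chr18:52375001-52400000). All 4 parental Smc1 libraries, on either genome, listed interactions at all 4. At Snap25, 20 of the 23 read pairs came from 1 interaction over 1285 bases, and the parental libraries had 50 and 69 (BL6) and 50 and 37 (NOD). At Slc28a2, 14 of 22 came from 1 interaction over 1177 bases, and the parental values were 73 and 41 (BL6) and 35 and 36 (NOD).

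Over 2-fold differences in raw read pairs were sought in the 6079 bins with at least 50 in either table. The median NOD to BL6 ratio was 1, and 80.06% lay within 1.2-fold. In all, 75 bins (1.23%) were higher in the NOD table, 57 of them listed in both, and 26 (0.428%) in the BL6 table, all listed in both. The largest ratio, 191, was at chr2:98650001-98675000, with no coding gene within 100 kb. It had 957 read pairs in the NOD table, 952 of them in 2 interactions inside the bin, and 5 in the BL6 table. There were 5576 and 3001 in the Smc1 NOD libraries and 7 and 4 in the Smc1 BL6 libraries. In CPM, 17.0% of the 34331 bins had both Smc1 NOD libraries above both Smc1 BL6 libraries. Duxf3, a double homeobox gene of the early embryo, had 482 and 8 (chr10:58225001-58250000), with 108 and 157 in Smc1 NOD and none in Smc1 BL6. Its promoter lay under an anchor of 2706 reads on the NOD genome only. Gm1988 had 105 and 9 (chr7:39175001-39200000). At Apobec3, the retrovirus-restricting cytidine deaminase, and Cbx7, a Polycomb subunit, the bin chr15:79900001-79925000 had 70 and 6, an equal ratio of 11.67, but there the Smc1 BL6 libraries had 114 and 212 and the NOD libraries 114 and 25.

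In the other direction the bin of Nfat5, the tonicity-responsive NFAT factor (chr8:107325001-107350000), had 51 read pairs in the BL6 table and 3 in the NOD table. The parental Smc1 libraries had 36 and 54 (BL6) and 35 and 30 (NOD). Kcna5, a potassium channel gene, had 54 and 12, Clpb, a mitochondrial disaggregase gene, 52 and 12, the bin nearest Setd4, a lysine methyltransferase gene, 50 and 17, and Cacna1g, a T-type calcium channel gene, 77 and 27. The BL6 to NOD ratio was 17.0 at Nfat5 and 2.85 to 4.50 at the other 4.

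The parental libraries took no part in choosing the bins, but each strain was listed on its own genome only. Whatever kept a bin off the BL6 table in F1 could do the same in the BL6 libraries. The orders below are therefore not independent of the choice and give no separate support. Both Smc1 NOD libraries exceeded both Smc1 BL6 libraries in CPM in 23 of the 39 NOD-only bins, against 17.0% of the 34331 bins, and the H3K27ac libraries did so in 17 of 39, against 9.93%. For the 57 bins over 2-fold higher in the NOD table these counts were 16 and 13. Both Smc1 BL6 libraries exceeded both NOD libraries in 0 of the 4 BL6-only bins and in 7 of the 26 bins over 2-fold higher on the BL6 genome, against 16.7%, and the H3K27ac libraries in 1 and in 4, against 12.9%. Summed over the 39 bins, the read pairs were 408 and 276 in Smc1 BL6, 19432 and 29513 in Smc1 NOD, 168 and 301 in H3K27ac BL6, and 8867 and 9236 in H3K27ac NOD.

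By gene family, 27 of 13374 protein-coding genes with a bin of at least 20 read pairs (0.202%) touched a NOD-only bin and 2 (0.0150%) a BL6-only bin. All 3 Sp100 and Sp140 genes were among the 27, as were 2 of 220 zinc finger genes (Zfp600, Zfp493) and 1 of 25 genes of the double-positive stage (Ets1). None of the 8 Ly49 receptor genes, 9 Ifi200 genes, 9 Schlafen genes, 21 MHC genes, 166 olfactory receptor genes or 21 vomeronasal receptor genes with such a bin did. In bins of at least 50 read pairs, 79 of 3875 genes (2.04%) touched a bin over 2-fold higher in the NOD table and 24 (0.619%) one higher in the BL6 table. All 9 UDP glucuronosyltransferase genes counted in this way did, on the NOD genome, but they share the 1 bin of the common Ugt1a exons. Of 14 cytochrome P450 genes 3 did, Cyp3a13, Cyp4f40 and Cyp4f15, the last pair being neighbours.

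Genes of the thymocyte programme were compared where they held at least 50 read pairs in either table. Of 30 genes of the double-positive stage, 19 had at least 50 read pairs, with a median NOD to BL6 ratio of 1.039 and a range from 0.758 (Cd8a) to 1.234 (Bcl2l1). Of 44 type 1 diabetes candidates, 18 had a median of 1.012 and a range from 0.740 (Ptpn22, a phosphatase that restrains T cell receptor signalling) to 1.411 (Ubash3a, another such inhibitor). Of 30 T cell receptor signalling genes, 21 had a median of 1.000, beside 1.015 over all 8730 genes of that depth. Over 2-fold, 58 of the 8730 were higher in the NOD table and 7 in the BL6 table. Defining genes of double-positive thymocytes were listed for 11 of 12 in the BL6 table and 12 of 12 in the NOD table. The difference was Ptcra, with 0 and 2 read pairs, and 2 is the least that a listed interaction can have. But all 5 B cell, all 4 myeloid, all 4 thymic epithelial and the 3 erythroid markers found on chromosomes 1 to 19 were listed in both tables too. Listed contacts at a gene are not its expression and gave no check of the sorted cell type.

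The net length difference between the genomes could be read from the NOD table, which keeps each distance in NOD coordinates beside shifted anchors. Distances were shorter on the NOD genome in 85.42% of interactions, longer in 10.52% and equal in 4.055%, between 2706 bases shorter and 275 longer, with a median of 117 bases shorter. Summed, this came to a loss of 0.289 bases per kb. Bins listed on the NOD genome only had a median absolute difference of 0.0641 bases per kb (33 of 39 bins with a value), below the 0.182 of all bins of at least 20 read pairs. Bins over 2-fold apart had 0.368 (NOD higher) and 0.407 (BL6 higher). By length difference, 2.217% of bins with none (interval 1.019 to 4.166) were over 2-fold apart, then 0.962%, 1.755% and 1.981% from the lowest to the highest of 3 equal groups. Intervals of neighbouring groups overlapped (0.561 to 1.536, 1.196 to 2.482 and 1.383 to 2.744). The 9 such bins without a difference were all higher on the NOD genome.

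Pairs of bins were compared in the same way. Of 319234 pairs listed on either genome, 259653 were on both, which was 90.40% of those in the BL6 table and 89.03% of those in the NOD table. Among 7468 pairs with at least 10 read pairs in either table, 788 (10.6%) were NOD-only and 650 (8.70%) BL6-only. An interaction of the other genome stood within 1 bin for 33.38% and 36.77% of these, which left 525 and 411, a count added after the data were seen. Of those, 437 and 364 were a bin with itself, a count for which the share over all 7468 pairs is not given here. The highest held 4964 read pairs (Sfi1) in the NOD table. In the BL6 table it was 47 read pairs in 2 interactions at Zbtb16, the factor of innate-like T cells (chr9:48725001-48750000), then 37 in 1 at Trim33, a chromatin-binding ubiquitin ligase (chr3:103225001-103250000). Most interactions of at least 10 read pairs were short, with 88.85% in the BL6 table and 84.48% in the NOD table spanning under 10 kb. Unmatched ones of at least 10 read pairs numbered 706 and 1142, and 91.08% and 71.80% of them spanned under 10 kb. The BL6 share was thus near that of all such interactions, and the NOD share was below it. In 17.42% and 8.319% of them both anchors fell on 1 anchor of the other table, so that neighbouring segments were listed there as a single one.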

How the data were processed

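HiChIP contacts were read from 10 interaction tables of 9 libraries. Per the submitters' processing notes HiC-Pro, Juicer 1.7.6 and MACS were used, with no role given, on mouse GRCm38; which program made the interaction tables is not given in the sources used here. The deposited values are counts of read pairs per interaction and counts of reads per anchor, and per the file headers a p-value and a q-value per interaction. The authors had listed the F1 library on both genomes and shifted NOD coordinates to the reference, as the table names say. From these, read pairs were summed over 25 kb bins and bin pairs on chromosomes 1 to 19 with Python 3.11.15, pandas 2.3.3, NumPy 2.4.6 and SciPy 1.17.1. The limits were 20 read pairs per bin, 10 per bin pair and 50 for a ratio over 2-fold. The binning was tested on simulated tables. Genes and promoters came from RefSeq (GRCm38.p6). The replicates of Smc1 were technical, so their spread is not biological.

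Named genes were up to 3 protein-coding genes at each of the 15 NOD-only and 10 BL6-only loci with most read pairs (or the nearest within 100 kb), the 5 largest ratios each way, and up to 5 members per gene list touching a one-genome bin; others are named beside a count. The members, lists and limits were chosen with earlier results of these data known. The alternatives were bin size, read pair minimum, distance, q-value, ratio limit and scaling.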

Additional observations from a re-analysis of the deposited data

Results flagged for a closer look

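Chromosome X entered no comparison. The F1 library had 14 read pairs in 4 interactions there on the BL6 genome, and 14 in 4 on the NOD genome. The other tables held 3 to 62 interactions on that chromosome.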

How the results depend on the processing

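More was listed on the NOD genome than on the BL6 genome under all 32 settings of the counts of bins, bin pairs, ratios and loci, unchanged settings included, but the counts themselves moved with most settings. Counts are given as NOD then BL6. One-genome bins numbered 89 and 16 with 10 kb bins, 20 and 1 with 50 kb, 12 and 0 with 100 kb, 60 and 19 with interactions of at least 3 read pairs, 111 and 52 at 10 read pairs and 18 and 0 at 50. With anchors at least 10 kb apart the BL6 count was 1 (NOD 31), and with a q-value up to 0.01 it was 11 (NOD 53). One-genome bin pairs numbered 2614 and 2035 at 5 read pairs, 123 and 82 at 20, 126 and 66 with anchors at least 10 kb apart, 427 and 338 with 100 kb bins, 394 and 312 with a q-value up to 0.01, and 525 and 411 without a neighbour. Bins over 2-fold apart numbered 516 and 350 at 20 read pairs, 23 and 0 at 100, 48 and 12 with interactions of at least 3, 37 and 6 with anchors at least 10 kb apart, 218 and 126 over 1.5-fold and 28 and 3 over 4-fold. In CPM they were 62 and 32. Loci numbered 92 and 52 at 10 read pairs and 11 and 0 at 50. With anchors at least 10 kb apart the read pairs in the 39 NOD-only bins were 11588 and 17033 in the Smc1 NOD libraries, 5499 and 5724 in H3K27ac NOD and 261 in the second H3K27ac BL6 library. Protein-coding genes at NOD-only bins were 59 when widened by 25 kb and 73 at 10 read pairs, zinc finger genes 5 when widened, and double-positive stage genes 2 at 10 read pairs. Of the 28 NOD loci, 21 kept at least 20 read pairs with anchors at least 10 kb apart (Sfi1 11401, chromosome 17 none), 23 with interactions of at least 3 and 17 with a q-value up to 0.01. Where a limit is raised or lowered the count moves by construction, and otherwise the cause was not tested. No paired analysis was possible because the results come from 1 library with no test.

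The tables hold listed interactions only, so read pairs below the listing limits are not seen, and 1 library gives no spread.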
